A study of Mus musculus with 6 samples.

Results

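Collagen chains are the subject here. They were defined as every probe set on the array whose annotation names a single gene with a symbol of the form Col, number, a, number. The definition gave 82 of 45037 probe sets (array controls left out), which belong to 42 of 18193 genes. By class these are 11 genes of fibrillar chains, 9 of network chains, 9 of fibril-associated chains with interrupted helices (FACIT), 5 of collagen VI and 8 of other types. The chains Col21a1, Col6a6 and Col28a1 are not analysed here. The brightest probe set by mean signal stands for a gene, and the other probe sets are given where they differ. Values are deposited log2 expression values, so a difference of 1 is a 2-fold difference.

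The arrays hold RNA of cells labelled as mouse hepatic stellate cells. That cell type stores vitamin A in the healthy liver and turns into matrix-producing myofibroblasts after injury. The senescent group (3 arrays) is labelled as control cells that express p53, with no doxycycline named. The proliferating group (3 arrays) was grown with 1 ug/ml doxycycline, under which the label gives p53 as knocked down. Both groups carry CMV-rtTA;TRE-GFP-shRNA.p53.1224 on a C57Bl/6 background, in which doxycycline acts through rtTA to switch on green fluorescent protein and a short hairpin RNA against p53. Doxycycline and the proliferating state therefore cannot be told apart. Whether the arrays of a group come from different animals or cultures is not said in the labels, so the p-values rest on a spread between samples that may be technical.

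Every collagen is a trimer of chains wound into a triple helix, and the class of a chain is set by how its trimers assemble. Fibrillar collagens I, III and V form the cross-striated fibres of connective tissue and scar, and FACIT chains decorate the surface of those fibres. Collagen VI forms beaded filaments around cells, and collagen IV forms the sheet-like network of basement membranes. Activated stellate cells are known as the main source of fibrillar collagen in the injured liver.

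Among arrays, medians lay between 6.15 and 6.19, and Cdkn1a, the p53-induced gene of the cell cycle inhibitor p21, read 12.85, 12.63 and 12.86 on the senescent arrays, against 11.00, 11.03 and 11.10 on the proliferating arrays (1.74 ± 0.08, SE). A background level of 5.58 was set at the 95th percentile of 43 probe set means for olfactory receptors, genes that stellate cells should not use. Of the stellate cell markers, 6 of 10 exceeded it on at least 1 array. In limma 0 rose and 2 fell, Pdgfrb (-1.30 ± 0.10) and Hand2 (-0.85 ± 0.10). The 3 at an unadjusted p under 0.05 (limma) were Pdgfrb, Hand2 and Lhx2 (-0.37 ± 0.11), all lower. Vim, Acta2 and Des gave no call, at means of 14.75, 14.57 and 7.10 in senescent cells and 14.66, 14.45 and 6.96 in proliferating cells. The summed stellate level (log2) was 15.73 to 15.74 on senescent and 15.64 to 15.73 on proliferating arrays, with Vim and Acta2 as its brightest members. Lrat, Reln, Gfap and Lhx2, markers on the same list, lay below background on every array, so the stellate identity is given here as labelled. All 6 mesothelial markers exceeded background on every array, Upk1b with means of 13.33 in senescent and 12.90 in proliferating cells. Their summed level (log2) was 14.43 to 14.44 on senescent and 14.28 to 14.41 on proliferating arrays, 2 of the 6 were higher and 2 lower, and their part in the collagen results was not tested. Of 5 portal fibroblast markers, 2 were higher, Thy1 (0.79 ± 0.13) and Fbln2 (0.50 ± 0.09), and 0 lower (limma, with 3 at an unadjusted p under 0.05). The third of these, Entpd2, read lower (-0.25 ± 0.10). The portal fibroblast markers summed to 13.74 to 13.96 on senescent and 13.23 to 13.44 on proliferating arrays. Their part in the collagen results was not tested either. All 4 biliary markers were above background on every array, with Krt19 higher and Krt7 lower, and summed to 11.30 to 11.45 on senescent and 10.97 to 11.03 on proliferating arrays. Of 5 hepatocyte markers, Apoa1, Ttr and Hnf4a were above background on every array, Alb and Cyp2e1 on none, and 0 passed (limma, with 0 at an unadjusted p under 0.05, sums 7.99 to 8.34 on senescent and 8.06 to 8.41 on proliferating arrays). Of 6 macrophage markers, Clec4f and Csf1r were above it on every array, Csf1r with means of 8.22 in senescent and 7.87 in proliferating cells (higher), Cd68 on all but 1, and Ptprc, Adgre1 and Marco on none. Their sums were 8.98 to 9.06 on senescent and 8.75 to 8.86 on proliferating arrays. Of 6 endothelial markers, Cdh5 was above background on the senescent arrays alone (higher), Kdr on every array and the other 4 on none, with sums of 8.32 to 8.34 on senescent and 8.08 to 8.32 on proliferating arrays. The part of these cell types in the collagen results was not tested. Calls in all these marker lists stand beside 10.5% lower and 9.49% higher of all genes. Poly-A spike-ins, bacterial transcripts mixed into the RNA, were brighter on senescent arrays by 0.60 ± 0.17 (log2, SE, exact two-sided permutation p = 0.1, the smallest that 3 against 3 arrays can give).

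The question asked of these chains was how their RNA differs between senescent and proliferating cells. Senescent cells had less RNA of the main fibrillar chains, such as Col3a1 (1.90-fold) and Col1a1 (1.48-fold), and of the collagen VI chains, up to 6.52-fold for Col6a3. They had slightly more RNA of the basement membrane chains Col4a1 (1.30-fold) and Col4a2 (1.27-fold), and more of the cartilage chain gene Col2a1 (2.02-fold). With arrays scaled to the poly-A spike-ins, though, both Col4 genes read lower and did not pass. Because bulk RNA was measured, fewer cells that make a chain and less RNA per cell cannot be told apart. Of the 42 genes, 12 fell and 5 rose at an adjusted p under 0.05 (limma with Benjamini-Hochberg adjustment over all genes). That is 28.6% lower and 11.9% higher, beside 10.5% lower and 9.49% higher of all 18193 genes. The median log2 change of the 42 was -0.05, beside -0.0018 for all genes. Of the 15 genes above background that passed, 9 changed by at least 1.5-fold and 4 by at least 2-fold. For 20 of the 42 genes the values of both groups lay apart without overlap (47.6%, beside 37.0% of all genes). The mean level was above background for 27 of the 42 genes, of which 11 fell and 4 rose, 40.7% and 14.8%, beside 14.7% and 12.7% of all genes above background. All changes are relative to the bulk of the genes. With scaling to the poly-A spike-ins instead, the median of all genes was -0.60. Col4a1, Col4a2, Col7a1 and Col11a2 then had negative values (-0.22, -0.25, -0.18 and -0.30), and none of them passed (limma, adjusted p of 0.149 to 0.373). Col2a1 stayed higher (0.42, adjusted p = 0.0436). The count of the 42 that rose was 2 without proliferating replicate 3, and 3 without senescent replicate 2 or 3. Of all genes, 6.82%, 7.41% and 7.44% rose in those fits.

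**Figure D1:**
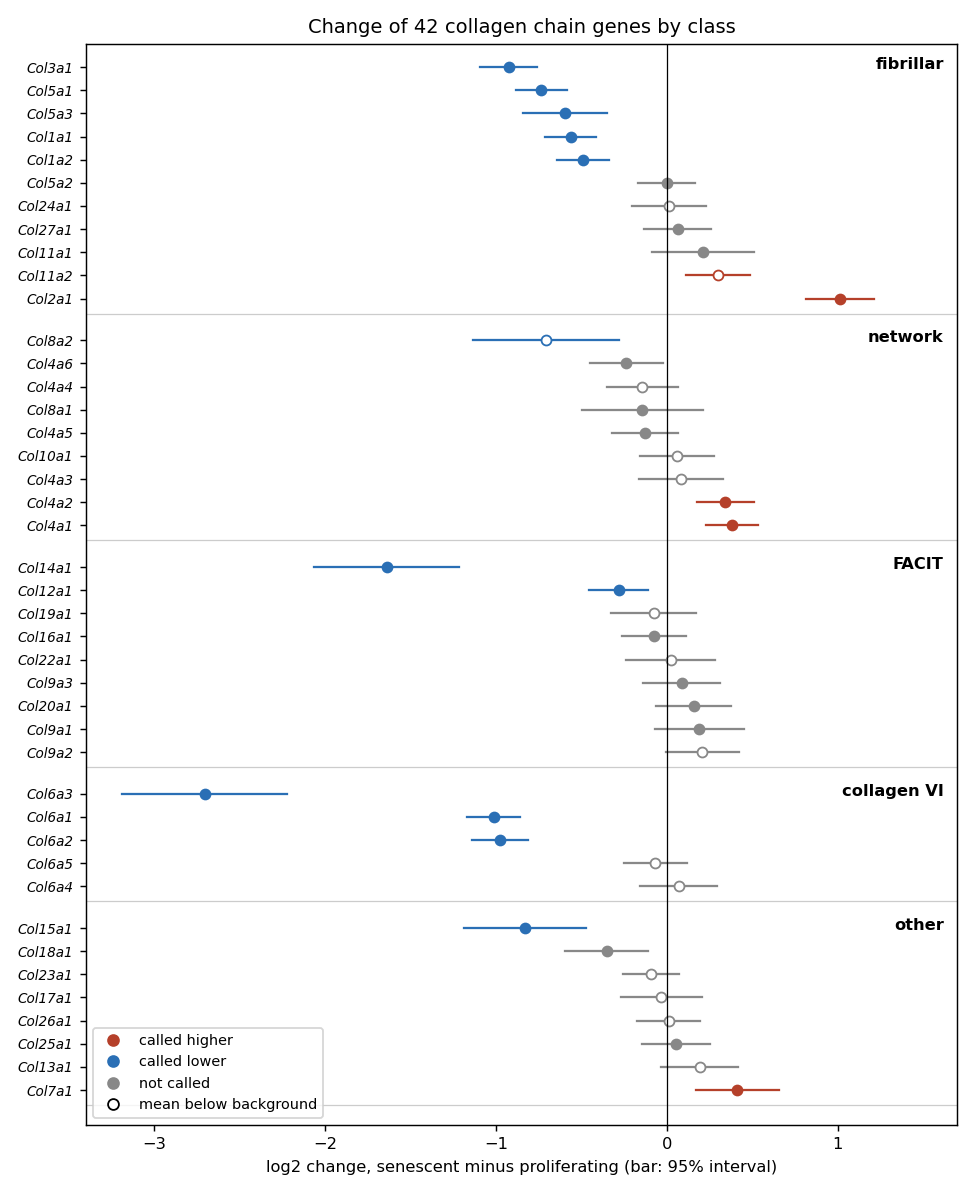
Log2 change (senescent minus proliferating, x axis) of each of the 42 collagen chain genes, grouped by class, with 95% intervals from limma. Col6a3 lies furthest to the left at -2.70 and Col2a1 furthest to the right at 1.02. Open symbols are genes whose mean is below background. With arrays scaled to the poly-A spike-ins the 4 smaller red values turn negative and are not called.

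Among fibrillar chains, those of collagens I and III and 2 of the 3 chains of collagen V fell. Of 11 genes, 5 fell and 2 rose, with a median log2 change of -0.0013. That is 45.5% lower and 18.2% higher, beside 10.5% lower and 9.49% higher of all genes. Those that fell were Col3a1, Col5a1, Col5a3, Col1a1 and Col1a2. Col3a1 (Entrez gene 12825), the chain of collagen III that mixes with collagen I in pliable tissue, read 13.41, 13.43 and 13.32 on the senescent arrays, against 14.38, 14.28 and 14.27 on the proliferating arrays. The groups did not overlap, and the change was -0.93 ± 0.07 (SE, 95% interval -1.09 to -0.76, adjusted p = 0.000128). Its second probe set gave -1.36 ± 0.08.

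Col1a1 and Col1a2 encode the chains of collagen I, the bulk of fibrous scar. Col1a1 (Entrez gene 12842) read 11.73, 11.66 and 11.72 on the senescent arrays, against 12.29, 12.24 and 12.26 on the proliferating arrays, a change of -0.56 ± 0.07 (adjusted p = 0.000813). Col1a2 (Entrez gene 12843) read 14.45, 14.46 and 14.48 in senescent cells, against 15.01, 14.96 and 14.90 in proliferating cells, a change of -0.49 ± 0.07 (adjusted p = 0.00163). Neither gene overlapped between the groups. The dimmer probe sets of Col1a2 gave -0.87 ± 0.09 and -1.37 ± 0.23. The second probe set of Col1a1 gave -0.26 ± 0.08 and did not pass (adjusted p = 0.0882 over all probe sets).

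The chains of collagen V, which sits in the core of collagen I fibres and limits their width, gave different calls. Col5a1 (Entrez gene 12831) read 11.39, 11.43 and 11.43 on the senescent arrays, against 12.13, 12.21 and 12.12 on the proliferating arrays, without overlap (-0.73 ± 0.07, adjusted p = 0.000244). Its other probe sets gave -0.81 ± 0.08, which passed, and -0.39 ± 0.11 (adjusted p = 0.0533 over all probe sets). Col5a2 (Entrez gene 12832), the partner chain, read 14.36, 14.39 and 14.29 on the senescent arrays, against 14.27, 14.41 and 14.37 on the proliferating arrays. These overlap, and the interval of the change was -0.17 to 0.16. The second Col5a2 probe set gave -0.21 ± 0.09 (adjusted p = 0.185). Col5a3, a rarer chain of the same type, read 6.48, 6.48 and 6.58 in senescent cells, against 7.35, 7.01 and 6.97 in proliferating cells, a change of -0.60 ± 0.11 (adjusted p = 0.0059). Its second probe set, below background, gave 0.13 ± 0.11, and the mean of both did not pass (-0.23, adjusted p = 0.177).

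Col2a1 (Entrez gene 12824), the chain of collagen II, the main collagen of cartilage, read 8.27, 8.05 and 8.29 on the senescent arrays, against 7.27, 7.14 and 7.16 on the proliferating arrays. The groups did not overlap and the change was 1.02 ± 0.09 (adjusted p = 0.000193), the largest rise among the 42 genes. It rests on the only probe set of the gene. Col11a2, a chain of the cartilage collagen XI, lay between 5.69 and 5.75 in senescent cells and between 5.31 and 5.55, below background, in proliferating cells, which makes it at least 1.09-fold higher (adjusted p = 0.0352), though it turned to -0.30 with spike-in scaling. That call was lost when any array but proliferating replicate 2 was left out (0.25 to 0.31, adjusted p of 0.0792 to 0.115). Col11a1, the other chain of collagen XI measured, had a change of 0.21 ± 0.13 (adjusted p = 0.32) with overlapping groups. Col27a1 had 0.06 ± 0.09. Col24a1, a minor fibrillar chain, was below background on every array.

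The start regions of Col1a2 and Col3a1 are shown because these genes of different fibrillar collagens fell together. Of the 42 genes, 33 had a window in the RefSeq promoter table (build GRCm38.p6), running from 250 bases before to 50 bases after the start of the gene, 36 windows in all. Capitals mark 4 motifs searched on both strands. Of all 32851 windows in the table, 13.6% hold the TATA box, TATAAA. The CCAAT box, with the letters CCAAT, is in 37.4%. The GC box, with the letters GGGCGG, is in 35.7%, and the AP-1 site, with the letters TGANTCA, in 7.81%. Of the 36 collagen windows, 13.9% hold TATAAA, 36.1% hold CCAAT, 61.1% hold GGGCGG and 2.78% hold TGANTCA. The Col1a2 window is chr6:4505368-4505667, plus strand, and the Col3a1 window is chr1:45311288-45311587, plus strand.
Col1a2: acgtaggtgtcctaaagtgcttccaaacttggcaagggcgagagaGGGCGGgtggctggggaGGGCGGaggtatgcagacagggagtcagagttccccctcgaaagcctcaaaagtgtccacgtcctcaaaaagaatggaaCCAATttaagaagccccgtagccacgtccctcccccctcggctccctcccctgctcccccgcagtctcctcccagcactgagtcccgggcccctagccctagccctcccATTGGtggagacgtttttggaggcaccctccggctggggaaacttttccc
Col3a1: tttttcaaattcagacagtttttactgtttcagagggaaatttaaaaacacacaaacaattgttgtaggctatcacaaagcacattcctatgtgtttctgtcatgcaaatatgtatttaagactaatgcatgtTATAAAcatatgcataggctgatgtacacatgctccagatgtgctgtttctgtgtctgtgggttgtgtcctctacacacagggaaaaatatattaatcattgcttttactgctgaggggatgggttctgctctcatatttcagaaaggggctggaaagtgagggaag
The Col1a2 window holds GGGCGG 2 times and CCAAT 2 times, once on each strand. The Col3a1 window holds TATAAA 117 bases before the start and none of the other motifs, and its GC content is 37.7%, and that of Col1a2 61.0%. Col3a1 and Col5a2 are next to each other among protein-coding genes on chromosome 1. Col3a1 fell and Col5a2 gave no call.

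Most FACIT chains gave no call or were too dim to read. Of 9 genes, 2 fell (22.2%, beside 10.5% of all genes) and 0 rose (limma, with 2 at an unadjusted p under 0.05). The median change was 0.02. Col14a1 (Entrez gene 12818), which encodes a chain bound to the surface of collagen I fibres, read 8.31, 8.15 and 7.95 on the senescent arrays, against 9.34, 10.07 and 9.92 on the proliferating arrays. The groups did not overlap, and the change was -1.64 ± 0.18 (3.12-fold lower, adjusted p = 0.00071). Its probe sets disagree in size, with -0.90 ± 0.11 in the second and -0.23 ± 0.13 (adjusted p = 0.31) in the dimmest.

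Col12a1 (Entrez gene 12816), a FACIT chain of dense connective tissue, read 10.88, 10.93 and 10.75 in senescent cells, against 11.11, 11.18 and 11.12 in proliferating cells. The change of -0.28 ± 0.07 (adjusted p = 0.031) did not pass when proliferating replicate 2 or 3, or senescent replicate 1 or 3, was left out (-0.30 to -0.23, adjusted p of 0.0746 to 0.104). Nor did it pass over all probe sets (adjusted p = 0.0579) or in the mean of its 4 probe sets (-0.13). Col16a1, expressed at a mean of 8.89 in senescent and 8.97 in proliferating cells, had a change of -0.08 ± 0.08. Col9a1, Col9a3 and Col20a1 lay just above background with changes of 0.19, 0.09 and 0.16, and none passed. Col9a2, Col19a1 and Col22a1 were below background on every array.

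Collagen VI held the largest fall of the 42 genes, that of Col6a3. Its 3 expressed chains, Col6a1, Col6a2 and Col6a3, which together make up the collagen VI monomer, all fell, and the other members, Col6a4 and Col6a5, were below background on every array. The median change of the 5 genes was -0.97, and 60% of them fell, beside 10.5% of all genes. Col6a3 (Entrez gene 12835) read 7.47, 7.52 and 7.38 on the senescent arrays, against 10.71, 10.02 and 9.75 on the proliferating arrays. The proliferating arrays spread more widely (SD 0.49) than the senescent arrays (SD 0.07), and the gap between the groups was far larger than either spread. The change was -2.70 ± 0.21 (95% interval -3.19 to -2.22, adjusted p = 0.00013), with a range of -2.91 to -2.43 when 1 array was left out. It rests on the only probe set of Col6a3.

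Col6a1 (Entrez gene 12833) read 11.84, 11.79 and 11.92 on the senescent arrays, against 12.85, 12.89 and 12.85 on the proliferating arrays, 2.02-fold lower (-1.01 ± 0.07, adjusted p = 7.44e-05). Col6a2 (Entrez gene 12834) read 12.26, 12.24 and 12.25 in senescent cells, against 13.13, 13.30 and 13.23 in proliferating cells, 1.97-fold lower (-0.97 ± 0.07, adjusted p = 0.000104). The second probe set of Col6a2 gave -0.99 ± 0.09, while Col6a1 has only 1 probe set. The differences of Col6a1 and Col6a2 are many times the spread within a group.

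The start regions of the collagen VI chains are shown because Col6a1 and Col6a2 are neighbours on chromosome 10, on the same strand, while Col6a3 lies on chromosome 1. The windows are chr10:76725995-76726294, minus strand for Col6a1, chr10:76623355-76623654, minus strand for Col6a2, and chr1:90843922-90844221, minus strand for Col6a3. Col6a2 has another window in the table, further upstream, which is not shown.
Col6a1: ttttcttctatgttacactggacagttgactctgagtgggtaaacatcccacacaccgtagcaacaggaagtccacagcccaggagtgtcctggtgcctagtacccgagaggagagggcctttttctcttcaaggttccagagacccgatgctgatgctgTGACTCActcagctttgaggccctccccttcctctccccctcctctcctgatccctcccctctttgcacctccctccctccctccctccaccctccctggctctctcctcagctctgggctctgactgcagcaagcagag
Col6a2: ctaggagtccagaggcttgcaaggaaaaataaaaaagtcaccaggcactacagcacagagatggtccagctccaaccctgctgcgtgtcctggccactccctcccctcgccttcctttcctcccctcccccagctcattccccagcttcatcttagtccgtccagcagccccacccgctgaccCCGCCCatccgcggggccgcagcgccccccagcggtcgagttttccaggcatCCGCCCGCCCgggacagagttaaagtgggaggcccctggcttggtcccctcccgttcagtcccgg
Col6a3: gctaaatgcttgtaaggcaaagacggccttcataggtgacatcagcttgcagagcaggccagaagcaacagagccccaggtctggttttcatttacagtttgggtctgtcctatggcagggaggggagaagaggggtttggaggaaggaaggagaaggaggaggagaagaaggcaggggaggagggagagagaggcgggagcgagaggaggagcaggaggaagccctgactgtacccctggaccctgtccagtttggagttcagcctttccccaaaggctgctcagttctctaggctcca
Capitals mark the same motifs as above. The Col6a1 window holds the single TGANTCA match among the 36 collagen windows, 90 bases before the start. The Col6a2 window holds GGGCGG 3 times, all as its reverse complement, with the 2 matches nearest the start overlapping. None of the 4 motifs is in the Col6a3 window. A match, or its absence, describes the letters of these windows only.

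Among network chains, Col4a1 and Col4a2 rose (negative and not called with spike-in scaling), the dim Col8a2 fell and the others gave no call. Of 9 genes, 2 rose and 1 fell, with a median change of -0.13. That is 22.2% higher and 11.1% lower, beside 9.49% higher and 10.5% lower of all genes. Col4a1 (Entrez gene 12826), a chain of the common basement membrane collagen, read 13.88, 13.81 and 13.87 on the senescent arrays, against 13.43, 13.51 and 13.48 on the proliferating arrays. The groups did not overlap, and the change was 0.38 ± 0.07 (adjusted p = 0.00507), with 0.32 ± 0.08 in its second probe set, though the value turned to -0.22 with arrays scaled to the poly-A spike-ins. Col4a2 (Entrez gene 12827), its partner in the same trimer, read 12.24, 12.14 and 12.27 in senescent cells, against 11.90, 11.90 and 11.81 in proliferating cells (0.34 ± 0.07, adjusted p = 0.0119, -0.25 with spike-in scaling). Without proliferating replicate 3 the change of Col4a2 was 0.31 and did not pass (adjusted p = 0.054).

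Col4a1 and Col4a2 are neighbours on chromosome 8 in opposite orientation, and their start regions overlap. The Col4a1 window is chr8:11312777-11313076, minus strand, and the Col4a2 window is chr8:11312555-11312854, plus strand. They share 78 bases, shown in capitals in the Col4a1 window. Whether this overlap bears on the changes of the pair was not tested.
Col4a1: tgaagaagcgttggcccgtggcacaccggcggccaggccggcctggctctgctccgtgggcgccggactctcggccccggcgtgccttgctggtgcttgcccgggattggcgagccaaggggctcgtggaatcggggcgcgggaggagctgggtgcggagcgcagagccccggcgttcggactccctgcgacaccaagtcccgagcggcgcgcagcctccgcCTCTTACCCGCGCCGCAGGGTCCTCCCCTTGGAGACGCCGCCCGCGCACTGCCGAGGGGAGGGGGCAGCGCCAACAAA
The annotated starts lie 21 bases apart, and 73.1% of the shared bases are G or C. Each window holds CCAAT once, at 145 bases before the start of Col4a1 and 32 before that of Col4a2, and GGGCGG 1 time in the Col4a1 window and 3 times in the Col4a2 window.

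Col4a5 and Col4a6, which form another collagen IV trimer, are a divergent pair on chromosome X. Col4a5 read 12.28, 12.51 and 12.31 on the senescent arrays, against 12.57, 12.46 and 12.44 on the proliferating arrays, with overlap (-0.13 ± 0.08, adjusted p = 0.369). Col4a6 lay between 9.29 and 9.45 in senescent cells, against 9.50 to 9.79 in proliferating cells, without overlap but short of the threshold (-0.24 ± 0.09, adjusted p = 0.117). Col4a3 and Col4a4, the chains of specialised basement membranes such as that of the kidney glomerulus, were below background on every array, as was Col10a1, the collagen of growth plate cartilage.

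Collagen VIII, a short-chain network collagen of vessels and the cornea, was represented by Col8a1, with means of 12.22 in senescent and 12.36 in proliferating cells (-0.14 ± 0.15, interval -0.49 to 0.21). Its 3 probe sets gave -0.24, -0.14 and 0.21, and none passed. Without proliferating replicate 1 the change was -0.33 and passed (adjusted p = 0.0465). Col8a2 read 4.23, 3.79 and 4.30 in senescent cells, against 4.52, 5.17 and 4.75 in proliferating cells. It passed the test (-0.71 ± 0.19, adjusted p = 0.0306), but every array was below background, so no fold is given. The call was lost without proliferating replicate 2 or 3, or senescent replicate 1 or 2 (-0.77 to -0.53, adjusted p of 0.0606 to 0.103).

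Among the 8 other chains, 1 fell and 1 rose, with a median change of -0.01. That is 12.5% each way, near the 10.5% lower and 9.49% higher of all genes. Col15a1 (Entrez gene 12819), a multiplexin of the basement membrane zone of vessels and muscle, read 6.03, 6.05 and 6.52 on the senescent arrays, against 6.87, 7.28 and 6.95 on the proliferating arrays (-0.83 ± 0.16, adjusted p = 0.00703). Col18a1, the related multiplexin whose end fragment is endostatin, read 7.01, 6.98 and 7.23 in senescent cells, against 7.61, 7.28 and 7.38 in proliferating cells. Its groups did not overlap, and the change of -0.35 ± 0.11 did not pass (adjusted p = 0.0511), though it did among genes above background (adjusted p = 0.0348) and without proliferating replicate 2 or senescent replicate 3 (adjusted p of 0.0418 and 0.0416).

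Col7a1 (Entrez gene 12836), the collagen of anchoring fibrils beneath epithelia, read 7.71, 7.77 and 7.98 on the senescent arrays, against 7.58, 7.29 and 7.35 on the proliferating arrays. The rise of 0.41 ± 0.11 (adjusted p = 0.0273), which turned to -0.18 with spike-in scaling, did not pass without proliferating replicate 2 or 3, or senescent replicate 2 or 3 (0.33 to 0.44, adjusted p of 0.064 to 0.0858). Of the transmembrane collagens, Col25a1 lay above background (0.05 ± 0.09), and Col13a1, Col17a1 and Col23a1 were below it on every array, as was Col26a1.

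**Figure D2:**
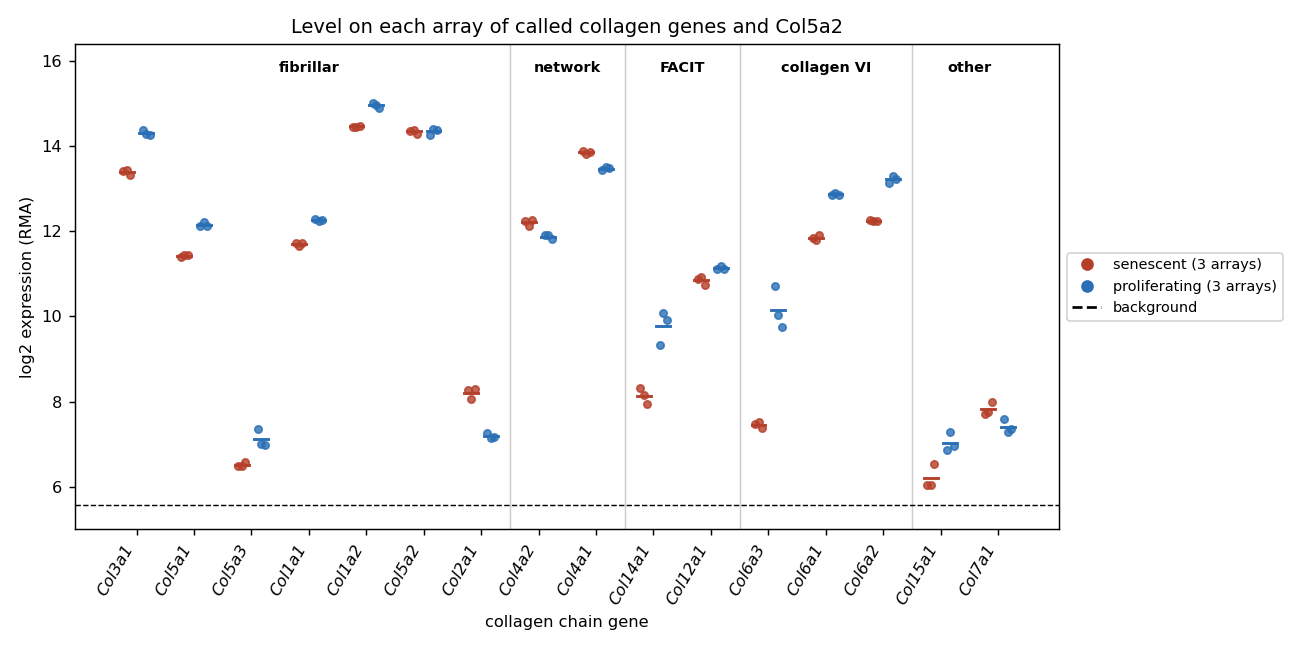
Level (log2 expression, y axis) on each senescent (left) and proliferating (right) array for 16 genes, the 15 called genes above background and Col5a2, with a line at each mean and a dashed line at background. The 3 senescent arrays of Col6a3 sit between 7.38 and 7.52 and its proliferating arrays between 9.75 and 10.71, while the groups of Col5a2 overlap. Col4a1, Col4a2 and Col7a1 turn negative with arrays scaled to the poly-A spike-ins, and are then not called.

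For chains that assemble together, the log2 difference between the chains was taken on each array and compared between the groups by an exact two-sided permutation test over 11 pairs, in which p cannot fall below 0.1. Within collagen VI, the change of Col6a3 minus that of Col6a1 was -1.69 ± 0.30 (SE), and the groups did not overlap (exact p = 0.1, adjusted p = 0.275). Against Col6a2 the difference was -1.73 ± 0.33 (p = 0.1 in the exact test). Col6a1 and Col6a2 differed by -0.04 ± 0.05 (exact p = 0.5). In collagen V, the difference between Col5a1 and Col5a2 was -0.73 ± 0.05, again without overlap (exact p = 0.1). Col4a1 and Col4a2 differed by 0.04 ± 0.05 (exact p = 0.6), and Col4a5 and Col4a6 by 0.11 ± 0.08 (exact p = 0.2).

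The Col1a1 and Col1a2 difference depended on the probe set. It was -0.07 ± 0.04 with the brightest probe set of each (exact p = 0.3) and 0.50 with the mean of all probe sets (exact p = 0.1). The remaining pairs each held at least 1 chain below background. Col8a1 minus Col8a2 was 0.56 ± 0.26 (exact p = 0.1), and the pairs of Col4a3 with Col4a4, Col9a1 with Col9a2 and Col11a1 with Col11a2 gave 0.22, -0.02 and -0.09 (exact p of 0.3, 0.7 and 0.6). No pair passed after adjustment, which this number of arrays does not allow.

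**Figure D3:**
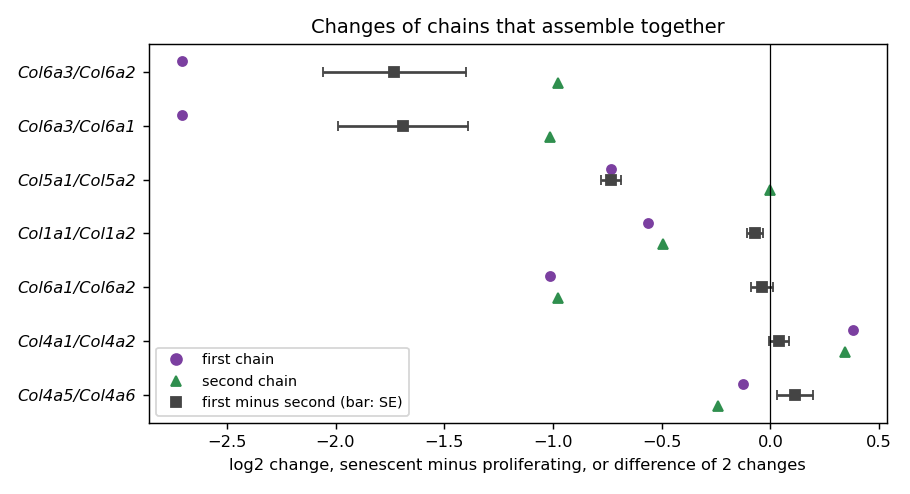
Log2 change (senescent minus proliferating) of the first and second chain of 7 pairs above background, and the difference between both changes with its SE. The squares of Col6a3 against Col6a1 and Col6a2 lie at -1.69 and -1.73, and that of Col4a1 against Col4a2 at 0.04. Scaling arrays to the poly-A spike-ins turns the single values of Col4a1 and Col4a2 negative and leaves the differences as they are.

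Of the 42 genes, 27 had several probe sets. In a fit over all 45037 probe sets that are not controls, 17 of the 82 collagen probe sets fell and 5 rose. That is 20.7% lower and 6.1% higher, beside 6.39% lower and 5.99% higher of all, so the share that rose is near that of all. The count higher was 1 without proliferating replicate 3, 2 without senescent replicate 1 or 3, and 3 without proliferating replicate 2 or senescent replicate 2. With spike-in scaling it was 0, and 67 were lower (limma in each). The share of all probe sets in these fits was not taken. No gene had probe sets called in opposite directions. The calls of probe sets differed for 4 genes, Col14a1, Col1a1, Col5a1 and Col5a3, and the signs for 6, Col12a1, Col19a1, Col4a3, Col4a4, Col5a3 and Col8a1. Of these, Col19a1, Col4a3 and Col4a4 had no probe set above background. By class, 9 of 21 fibrillar probe sets fell and 1 rose, 4 of 7 of collagen VI fell, 2 of 24 FACIT probe sets fell, and 3 of 17 network probe sets rose and 1 fell.

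**Figure D4:**
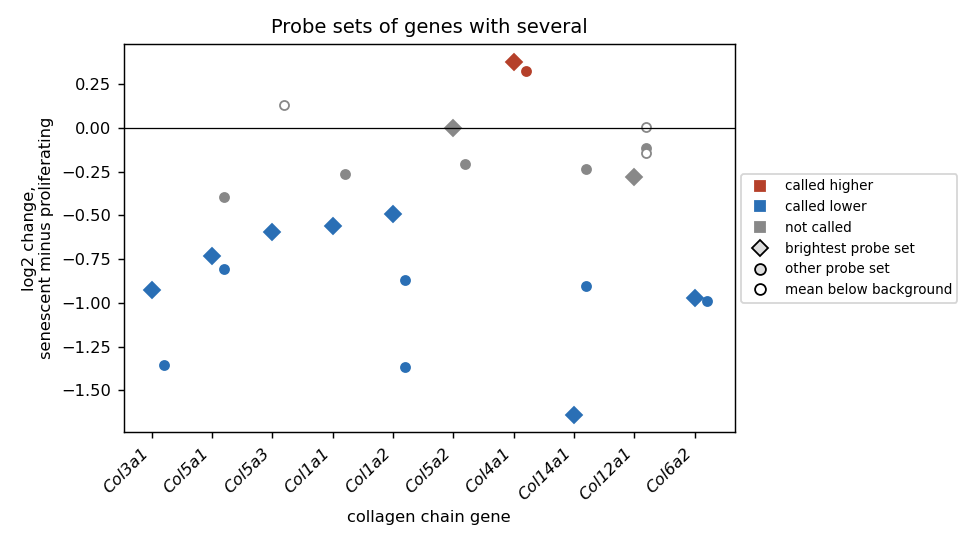
Log2 change (senescent minus proliferating) of every probe set of the 10 genes of the level plot that have several, with the brightest as a diamond. Those of Col1a2 spread from -1.37 to -0.49 and those of Col14a1 from -1.64 to -0.23, while both probe sets of Col4a1 read higher in senescent cells (negative for the gene with arrays scaled to the poly-A spike-ins).

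Genes that make, bind and break down collagen were read from lists in the same fit. Of 33 measured biosynthesis genes, 7 fell and 4 rose, with a median change of -0.04. That is 21.2% lower and 12.1% higher, beside 10.5% lower and 9.49% higher of all genes. The largest falls were Loxl1, a cross-linking enzyme (-1.04 ± 0.10), Pcolce, an enhancer of procollagen C-proteinase (-0.65 ± 0.08), and Sec24d of the coat that exports procollagen from the endoplasmic reticulum (-0.51 ± 0.12). The rises included Tll1, a procollagen C-proteinase (2.44 ± 0.15, with 1 proliferating array below background), and the cross-linking enzyme genes Loxl3 (0.82 ± 0.07) and Loxl4 (0.60 ± 0.09). Serpinh1, the collagen chaperone HSP47, had -0.17 ± 0.08 and did not pass (adjusted p = 0.188).

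Of 12 collagen receptor genes, 2 fell and 2 rose, with a median change of 0.02. That is 16.7% each way, beside 10.5% lower and 9.49% higher of all genes. Itga1, the integrin subunit that binds collagen IV and I, fell by 1.01 ± 0.11, and Antxr1, a collagen-binding membrane protein, by 0.46 ± 0.07. Antxr2, which binds collagen IV and VI, and Itgb1, the partner subunit of the collagen integrins, had 0.76 ± 0.14 and 0.30 ± 0.08. Of 10 fibril partner genes, 2 fell and 2 rose, 20% each way. The proteoglycans Fmod and Dcn, which bind fibrils and govern their width, had -1.67 ± 0.11 and -0.75 ± 0.07, while Tnxb, tenascin X, and Thbs1, thrombospondin, had 1.16 ± 0.14 and 0.92 ± 0.08. Of 12 degradation genes, 5 rose (41.7%, beside 9.49% of all genes) and 0 fell (limma, adjusted p under 0.05). At an unadjusted p under 0.05 (limma) there were 6, among them Mmp9, which read lower (-0.53 ± 0.18, adjusted p = 0.0771). The rises were the collagenases Mmp13 (1.84 ± 0.11) and Mmp14 (0.43 ± 0.08) and the inhibitors Timp1, Timp3 and Timp2 (0.76 ± 0.08, 0.66 ± 0.07 and 0.65 ± 0.07). They cover both the enzymes and their inhibitors. The rises of Mmp14, Itgb1 and the biosynthesis gene Pcolce2 (0.31 ± 0.08) are smaller than the shift of 0.60 that separates the spike-ins. That of Loxl4 is about equal to it. The rises of Timp2, Timp3, Antxr2, Timp1 and Loxl3 (0.65 to 0.82) are not far above it. Whether they pass with arrays scaled to the spike-ins is not given here.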

How the data were processed

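The RNA of 3 senescent and 3 proliferating cell pellets was measured on Affymetrix 3' expression arrays, and samples were grouped by title. The authors deposited a log2 value for each probe set, obtained with RMA (background correction, quantile normalization and probe summary), per the submitters' processing notes. The sources used here name neither the RMA version nor the chip description. RMA takes out any shift that most genes share. With 3 arrays a group, precision is set by the number of arrays.

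Of the probe sets, 64 were controls, 34958 had 1 gene symbol in the platform annotation, 932 had several and 9211 were not listed. All 42 collagen genes matched a RefSeq table (GRCm38.p6) by Entrez number, and no symbol had to be updated. No build is stated for the probes, so probe positions are not given. The coordinates of the start windows, and which genes are neighbours, are those of GRCm38.p6.

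Senescent minus proliferating changes were tested with limma 3.58.1 (lmFit and eBayes, R 4.3.3), without covariates, over 18193 genes (the brightest probe set of each) and over 45037 probe sets, with Benjamini-Hochberg adjustment and a threshold of 0.05. When this comparison was tested on simulated data of 18193 genes, 86.6% of 67 genes shifted by 0.5 were recalled, and 100% of 67 shifted by 1. Where all arrays of a group were below background, the fold is a bound against 5.58. Chain pairs used an exact permutation test.

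The members, classes and gene lists were chosen with earlier results of these data known. The genes given on every array are up to 6 called members of each class by size of change and the 2 brightest of each class, and partner lists name up to 3 called members in each direction. Serpinh1, Mmp14 and Timp2 were named after their values were seen. The alternatives changed the choice of probe set, filters on dim genes, the variance model, array scaling, a replicate block, a 1.2-fold threshold and leaving out each array. The target of the hairpin is not analysed here. Python 3.11.15 with matplotlib 3.10.9 drew the figures.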

Additional observations from a re-analysis of the deposited data

How the results depend on the processing

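Of 291 values of 20 collagen genes (those called and the 2 brightest of each class), over up to 15 alternatives, 241 kept their direction and their side of the threshold, 35 no longer passed, 7 newly passed and 8 turned sign. For Col5a2, not called and at -0.0013, these were 0.067 with arrays centred on genes of middle level and 3 of the values with 1 array left out (-0.042 to 0.029 over all 6). The others were Col4a1, Col4a2, Col7a1 and Col11a2 with arrays scaled to the poly-A spike-ins (-0.22, -0.25, -0.18 and -0.30), none of which passed there. With that scaling 1 of the 42 collagen genes was higher and 33 lower (limma), beside 0.962% higher and 83.2% lower of all 18193 genes. Of the collagen probe sets 0 were higher and 67 lower (limma), with no share of all probe sets taken. The scaling moves all genes by -0.60. Of all genes called, 47.4% were higher here, 63.2% with arrays centred on genes of middle level and 1.14% with spike-in scaling. Against a change of 1.2-fold, 1 of the 42 collagen genes was higher and 7 lower (limma), beside 2.70% higher and 2.86% lower of all genes. Among the falls, Col1a2, Col5a3, Col8a2, Col12a1 and Col15a1 then no longer passed. Among the rises, Col4a1, Col4a2, Col7a1 and Col11a2 no longer passed. With the replicate number as a replicate block, 3 of the 42 genes were higher, beside 7.65% of all genes, and 2 probe sets. The numbers share no source in the labels, same-numbered arrays deviated with correlations of 0.09, -0.07 and -0.15, and 1 of the 6 arrays correlated best with its own number. Leaving out each array gave 2 to 4 of the 42 genes higher, beside 6.21% to 8.59% of all genes. It gave 10 to 13 lower, beside 7.17% to 9.75% of all genes, and 1 to 5 probe sets higher. Without probe sets that can bind several transcripts (suffixes _s_at, _x_at and _a_at), 3 probe sets were higher. With the mean of all probe sets of a gene, the pair differences were 0.50 for Col1a1 and Col1a2, -0.0024 for Col4a3 and Col4a4, -0.54 for Col5a1 and Col5a2, and -0.10 for Col9a1 and Col9a2. Apart from the probe sets themselves, the cause was not tested. Genes below background on every array limit what can be said of Col6a4, Col6a5, Col4a3, Col4a4, Col8a2, Col9a2 and the other dim chains.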
